A study of Mus musculus with 6 samples.

Results

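The phase II conjugation enzymes of mouse liver were examined as 66 protein-coding genes, taken by symbol from the 54532 Ensembl genes of the count table. They comprised 21 UDP-glucuronosyltransferase (UGT) genes, 21 sulfotransferase (SULT) genes and 24 glutathione S-transferase (GST) genes, the microsomal Mgst genes included. Liver RNA-seq libraries of mice on a high-fat diet (HFD, 3 libraries) were compared with those of mice on the same diet that were also given allantoin in their drinking water (HFD + Allantoin-H, 3 libraries, replicates 4 to 6). All were labelled WT, and the study's methods describe male C57BL/6J mice aged 8 weeks, whereas a label gives an age of 4 weeks. HFD was fed for 4 weeks, followed by 4 weeks of HFD with or without allantoin, at 0.3 mg/mL according to the methods for the Allantoin-H group. The labels do not tie a dose to a library, and they do not say that each library came from a separate mouse, so the p-values measure the spread between these libraries. Chow-fed mice were not analysed here, and both groups share the diet.

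Phase II enzymes attach a polar group to a drug, hormone, bile pigment or reactive metabolite, which makes it easier to excrete in bile or urine. UGTs transfer a sugar, mostly glucuronic acid from UDP-glucuronic acid, in the endoplasmic reticulum. SULTs transfer sulfate from PAPS in the cytosol, and GSTs join glutathione to electrophiles. The liver is the main site of all of these reactions, and several of the genes are inducible through nuclear receptors and the transcription factors AhR and NRF2.

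Levels are given as CPM, the counts per 1000000 of each library's TMM-scaled size. A gene was called when the adjusted p of edgeR's quasi-likelihood test, taken over 12795 genes, was under 0.05. Of the 66 genes, 44 passed the filter on low counts and were tested. Of these, 10 were called higher and 6 lower in the Allantoin-H group, and 28 were not called. Over all genes tested, 11.3% were called higher and 13% lower. The groups did not overlap for 20 of the 44, against 44.3% of all genes tested. By family, 7 of 15 tested UGT genes were higher and 2 lower, 1 of 8 SULT genes was higher and 1 lower, and 2 of 21 GST genes were higher and 3 lower. The median log2 fold change was 0.49 for UGT, 0.22 for SULT and 0.07 for GST genes, beside -0.03 for all genes tested. The share of genes called higher lay above the all-gene share for UGT (46.7%), near it for SULT (12.5%) and slightly below it for GST (9.52%). Of the 7 UGT genes called higher, 4 were Ugt1a genes of a single locus with shared exons. These 4 are therefore not independent of each other, which limits the comparison of the UGT share with the all-gene share.

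**Figure D1:**
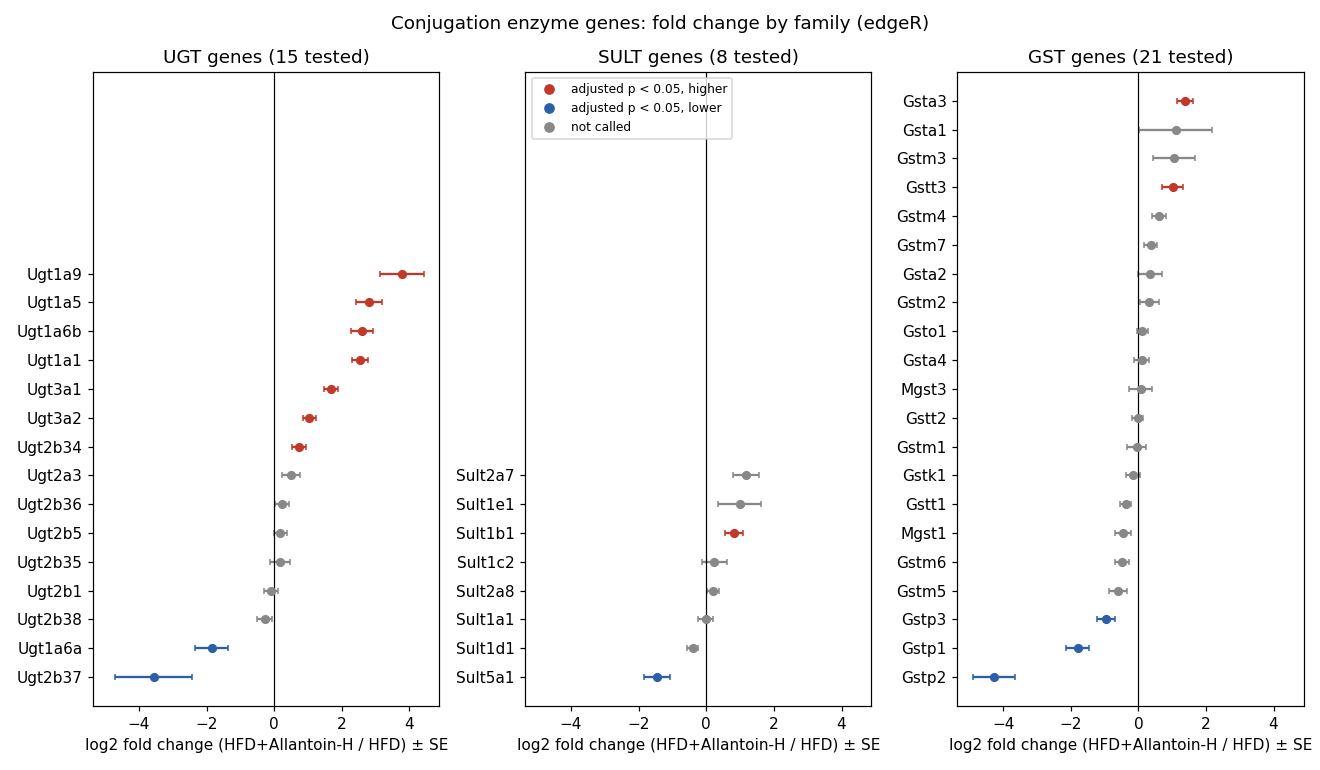
Log2 fold change (HFD + Allantoin-H over HFD, x axis) with its standard error for the 44 tested genes, 1 panel per family, coloured by call. Red points (10 genes) were called higher and blue points (6 genes) lower, and the UGT panel holds 7 of the 10.

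The libraries held 11326372 to 14601457 counts, with no batch or date in the labels. Transcripts of the mitochondrial chromosome made up 17.9 to 36.4% of all counts in HFD, against 6.90 to 11.3% in Allantoin-H, so that the groups did not overlap. With that chromosome left out of the counts, the numbers of conjugation genes called were again 10 higher and 6 lower. That setting hardly changed the scaling, as the median log2 fold change of all genes was -0.0301, against -0.0298 with it. It therefore does not test whether the difference in mitochondrial share affects the calls. HFD replicate 1, which had the largest mitochondrial share, was the lowest library for 9 of 15 tested UGT genes and 9 of 21 tested GST genes. The same was not counted over all genes. Without HFD replicate 1, 8 conjugation genes were higher and 3 lower. Of 13189 genes tested, 1222 (9.27%) were then higher and 1339 lower. Without Allantoin-H replicate 6, which was high in several GST genes, 7 conjugation genes were higher and 3 lower. Of 13231 genes tested, 702 (5.31%) were then higher and 832 lower. Summed hepatocyte markers ran from 87158 to 88746 CPM in HFD and from 70677 to 99001 CPM in Allantoin-H, with 1 of 8 markers called higher (Cps1) and 2 lower (Apoa1, Ttr). Summed macrophage and stellate cell markers separated the groups. Macrophage and Kupffer cell markers summed to 110 to 262 CPM against 305 to 343 CPM, with 3 of 8 called higher. Stellate cell markers summed to 140 to 201 CPM against 307 to 373 CPM, with 5 of 8 called higher. Endothelial markers summed to 72.1 to 142 CPM against 131 to 209.9 CPM, which overlapped, with 1 of 7 higher. Cholangiocyte markers summed to 34.5 to 159 CPM against 21.9 to 76.8 CPM, with 1 of 6 lower and 3 tested. Adipocyte markers summed to 86.9 to 331 CPM against 46.9 to 117 CPM, with 1 of 7 lower and 3 tested. The untested Adipoq, Plin1, Lep and Retn were at 51.4, 49.2, 11.4 and 19.8 CPM in HFD replicate 2. In every other library they were at 0.118 CPM or less. Lymphocyte markers summed to at most 7.11 CPM, and those of pancreatic acinar cells to at most 28.5 CPM. Red blood cell markers overlapped between the groups, at 332 to 1333 CPM against 876 to 1053 CPM. Of the 5 intestinal markers, Cdx1 and Cdx2 were at 0 in every library and 1 was called lower. The part of these cells in the results below was not tested, and fewer cells of a type cannot be told apart from less RNA per cell in whole liver.

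The Ugt1a genes showed the largest increases of the set. They lie in a single locus, chr1:88055388-88220002 on GRCm38, where each gene has an annotated first exon that is spliced to the same following exons. Most of the first exon of Ugt1a6a is also annotated in a transcript of Ugt1a7c. The first exon encodes the substrate-binding part of the enzyme, and the shared exons encode the part that binds UDP-glucuronic acid. In the GENCODE annotation the first exon of Ugt1a1 lies at chr1:88211959-88212871 (913 bases), and the first shared exon at chr1:88215044-88215175 (132 bases). The junction sequences of the called genes are shown because they mark where the first exon joins the shared exons. The last 30 bases of the first exon are in lower case and the first 30 bases of the shared exon in capitals.
Ugt1a1: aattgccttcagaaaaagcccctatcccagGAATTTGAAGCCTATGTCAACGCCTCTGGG
Ugt1a5: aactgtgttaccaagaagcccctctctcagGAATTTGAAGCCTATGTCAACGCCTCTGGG
Ugt1a6a: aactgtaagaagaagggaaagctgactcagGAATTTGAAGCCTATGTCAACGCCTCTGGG
Ugt1a6b: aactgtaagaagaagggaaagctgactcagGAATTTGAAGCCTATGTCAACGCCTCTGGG
Ugt1a9: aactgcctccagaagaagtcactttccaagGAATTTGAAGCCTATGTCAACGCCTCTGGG
Ugt1a6a and Ugt1a6b are identical over these bases, and 94.9% identical over the whole first exon. The first-exon bases printed for Ugt1a5 are also those of Ugt1a2, and their whole first exons are 79.9% identical. The first exon of Ugt1a1 is 53.2 to 56.8% identical to the others. How reads in the shared exons were counted is not given in the sources used here, so the values of single Ugt1a genes are uncertain where they depend on them. With Gm20528 on the opposite strand included, 17.3% of the exon bases of Ugt1a1 are its own, and the strand setting is not given.

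Ugt1a1, the enzyme that conjugates bilirubin, was at 12.2, 14.8 and 21.3 CPM in HFD replicates 1 to 3 and at 76.1, 107 and 97.2 CPM in Allantoin-H replicates 4 to 6. Every Allantoin-H library was above every HFD library. It rose 5.78-fold, a log2 fold change of 2.53 (SE 0.24, adjusted p = 0.00153). Ugt1a6b, whose enzyme conjugates small planar phenols, was at 2.95, 4.15 and 8.03 CPM in HFD and 29.0, 28.9 and 34.0 CPM in Allantoin-H. It also separated the groups and rose 5.99-fold (log2 fold change 2.58, SE 0.33, adjusted p = 0.00301).

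Ugt1a5 was at 0.764, 1.09 and 2.17 CPM in HFD and 10.2, 7.93 and 10.7 CPM in Allantoin-H (log2 fold change 2.80, SE 0.39, adjusted p = 0.00383). Ugt1a9, a broad phenol-conjugating enzyme, had 0, 8 and 8 counts in HFD and 70, 106 and 141 counts in Allantoin-H, which is 0 to 0.790 CPM against 5.13 to 9.52 CPM. Its log2 fold change was 3.77 (SE 0.65, adjusted p = 0.00591), and it was the lowest in level of the 5 tested Ugt1a genes in HFD per kilobase. These 4 genes were called under every alternative setting that tested them. Ugt1a5 and Ugt1a9 were not tested where at least 10 counts in every library were required, as HFD replicate 1 had 7 and 0.

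Ugt1a6a went the other way. It was at 22.2, 11.95 and 4.85 CPM in HFD and 4.18, 3.55 and 2.97 CPM in Allantoin-H. The groups did not overlap, but the HFD values fell over a wide range, with replicate 3 just above Allantoin-H replicate 4. The log2 fold change was -1.86 (SE 0.48, adjusted p = 0.0245). The call was lost without HFD replicate 1, without any 1 of the Allantoin-H libraries and in limma-voom, with adjusted p of up to 0.0898. In the annotation Ugt1a6a has 2142 exon bases of its own, of which 1920 lie within the region of the shared exons and 222 lie upstream of it, whereas all 938 own bases of Ugt1a6b lie upstream. A read within those 1920 bases cannot be assigned to a first exon. With the counts of all Ugt1a genes summed into 1 feature, the sum was at 39.3, 33.2 and 37.1 CPM in HFD and 129, 154 and 155 CPM in Allantoin-H. The summed feature rose with a log2 fold change of 2.0 (SE 0.17, adjusted p = 9.50e-04), opposite to Ugt1a6a alone.

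Of the other Ugt1a genes, none passed the filter. Ugt1a7c had 9, 0 and 0 counts in HFD and 60, 1 and 8 in Allantoin-H, with most of them in replicate 4. Ugt1a10 had at most 7 counts in a library, Ugt1a2 at most 2, and Ugt1a8 had 0 in all 6 libraries.

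The 250 bases before the RefSeq start of 4 of the called Ugt1a genes are printed (RefSeq, GRCm38.p6, plus strand), because these genes share their later exons but not their promoters. Ugt1a6b has no entry in the promoter table used. Capitals mark matches, on either strand, to the AhR core GCGTG, the NRF2 core TGACNNNGC or the nuclear receptor motif AGGTCA.
Ugt1a1, chr1:88211709-88211958: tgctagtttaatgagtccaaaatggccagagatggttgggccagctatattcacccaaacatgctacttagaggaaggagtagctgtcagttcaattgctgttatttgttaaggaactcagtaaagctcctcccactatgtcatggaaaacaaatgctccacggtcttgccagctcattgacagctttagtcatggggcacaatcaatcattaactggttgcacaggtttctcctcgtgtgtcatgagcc
Ugt1a5, chr1:88165762-88166011: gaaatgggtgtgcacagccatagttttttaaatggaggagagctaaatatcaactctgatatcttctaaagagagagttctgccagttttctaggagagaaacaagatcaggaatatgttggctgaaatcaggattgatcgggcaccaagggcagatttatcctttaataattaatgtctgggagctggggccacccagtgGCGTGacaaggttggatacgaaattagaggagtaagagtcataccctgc
Ugt1a6a, chr1:88134559-88134808: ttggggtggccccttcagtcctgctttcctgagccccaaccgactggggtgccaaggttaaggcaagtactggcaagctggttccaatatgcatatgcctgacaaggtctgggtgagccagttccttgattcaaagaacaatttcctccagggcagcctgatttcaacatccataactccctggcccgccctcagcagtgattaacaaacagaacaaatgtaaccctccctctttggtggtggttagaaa
Ugt1a9, chr1:88070529-88070778: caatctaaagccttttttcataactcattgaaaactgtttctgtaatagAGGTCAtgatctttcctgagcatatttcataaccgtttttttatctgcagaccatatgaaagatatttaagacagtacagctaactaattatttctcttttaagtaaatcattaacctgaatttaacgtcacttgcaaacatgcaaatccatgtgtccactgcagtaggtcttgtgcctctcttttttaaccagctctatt
GCGTG was found before Ugt1a5 and AGGTCA before Ugt1a9, and the windows of Ugt1a1 and Ugt1a6a held none of the 3 motifs. Across the 58 of 66 conjugation genes with a promoter entry, 19% held GCGTG, against 28.2% of 32851 promoters. The other shares were 6.9% against 10.2% for TGACNNNGC and 19% against 14% for AGGTCA. A conjugation gene counted when any of its windows matched, whereas the 32851 promoters were counted singly. Genes with several windows thus had more occasions to match, and the shares are not strictly comparable. A match is a description of these letters and not a site of binding.

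The Ugt3a genes, which use UDP-N-acetylglucosamine (Ugt3a1) or UDP-glucose and UDP-xylose (Ugt3a2) instead of UDP-glucuronic acid, both rose. They are neighbours at chr15:9276888-9315032 and chr15:9335550-9370955. Ugt3a1 was at 26.2, 42.3 and 39.1 CPM in HFD and 116, 103 and 127 CPM in Allantoin-H (log2 fold change 1.69, SE 0.21, adjusted p = 0.00296). Ugt3a2 was at 164, 240.1 and 197 CPM in HFD and 359, 416 and 461 CPM in Allantoin-H (log2 fold change 1.04, SE 0.19, adjusted p = 0.00783). Neither gene overlapped between the groups, and both were called under every alternative. They do not share exon bases with another gene.

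The Ugt2b genes, whose enzymes conjugate steroids and many drugs, hold most UGT transcripts per kilobase. Ugt2b5 led with 337 CPM per kilobase in HFD and 382 in Allantoin-H, followed by Ugt2b36 with 286 and 336 and Ugt2b1 with 195 and 182. None of these 3 was called. Ugt2b5 was at 668, 679.9 and 533 CPM in HFD and 607, 669 and 852 CPM in Allantoin-H, so that the groups overlapped (log2 fold change 0.18, SE 0.19, adjusted p = 0.531). Ugt2b5 and Ugt2b38 are 95.54% identical over 1861 bases, which leaves the split of reads between them uncertain. Ugt2b36 was at 549, 652 and 568 CPM in HFD and 569.7, 612 and 895 CPM in Allantoin-H (log2 fold change 0.23, SE 0.21, adjusted p = 0.447).

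Ugt2b34 was the Ugt2b gene called higher. It was at 284, 269.8 and 422 CPM in HFD and 459, 564 and 598 CPM in Allantoin-H, with no overlap (log2 fold change 0.73, SE 0.22, adjusted p = 0.0383). The call was lost without HFD replicate 1 or 2 and without any 1 of the Allantoin-H libraries, with adjusted p of up to 0.125. The lower call of Ugt2b37 rested on HFD replicate 3. It had 64, 25 and 1181 counts in HFD and 33, 60 and 47 in Allantoin-H, which is 6.99, 2.47 and 98.7 CPM against 2.42, 3.55 and 3.17 CPM. The groups overlapped, and the log2 fold change of -3.56 (SE 1.13, adjusted p = 0.0491) became -0.62 (SE 0.46, adjusted p = 0.337) without that library. The call was also lost without any 1 of the Allantoin-H libraries, in limma-voom, with library size only and with the length and GC trend removed. Ugt2b1, Ugt2b35 and Ugt2b38 overlapped between the groups and were not called, with log2 fold changes of -0.10, 0.17 and -0.28.

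Ugt2a3 was at 124, 238 and 271 CPM in HFD and 274, 318 and 297 CPM in Allantoin-H and was not called (log2 fold change 0.49, adjusted p = 0.210), although the groups did not overlap. Ugt2a1 and Ugt2a2 had 0 counts in all libraries, but share nearly all exon bases, with 1.17 and 5.51% of their own. How shared reads were counted is not given, so these counts do not show that the transcripts were absent. The summed CPM of the 21 UGT genes was 2726 ± 282 in HFD and 3558 ± 474 in Allantoin-H (SD, n = 3), a ratio of 1.31. The 9 Ugt1a genes summed to 36.5 ± 3.10 CPM and 146 ± 14.8 CPM (SD, n = 3), and the 7 Ugt2b genes to 2242 ± 170.4 CPM and 2589 ± 397 CPM. Per kilobase, Ugt1a1 made up 0.626% of the summed UGT level in HFD and 2.87% in Allantoin-H. These shares use all 2224 exon bases of Ugt1a1, of which 913 are not shared with other Ugt1a genes. With Gm20528 on the opposite strand included, 1839 of the 2224 bases are shared. The shares therefore depend on the strand setting and on how reads in shared exons were counted, which are not given.

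**Figure D2:**
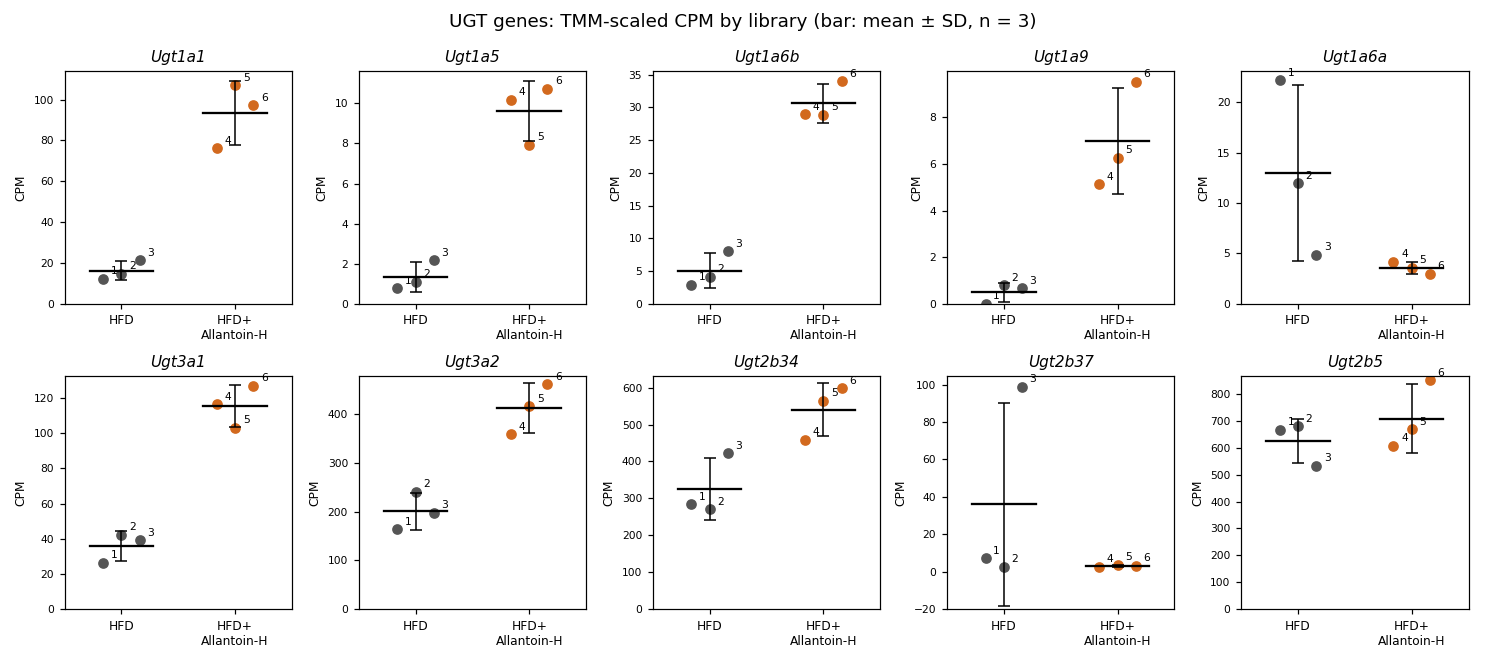
CPM (y axis) of 10 UGT genes in each library, labelled by replicate, with the mean and SD of the 3 libraries of each group (bars). The panels of Ugt1a1, Ugt1a5, Ugt1a6b, Ugt1a9, Ugt3a1, Ugt3a2 and Ugt2b34 show every Allantoin-H library above every HFD library, and Ugt2b37 is high in HFD replicate 3 only.

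Among the SULT genes, the most abundant ones changed little. Per kilobase, Sult2a8, which sulfates bile acids, led with 366 CPM per kilobase in HFD and 421 in Allantoin-H. Sult1a1, a phenol sulfotransferase, followed with 192 and 190.0, and Sult1d1, which acts on catecholamines, with 119 and 90.3. Sult2a8 was at 1028, 1222.5 and 1351 CPM in HFD and 1509, 1424.5 and 1211 CPM in Allantoin-H (log2 fold change 0.20, SE 0.18, adjusted p = 0.451). Sult1a1 was at 226, 258 and 385 CPM in HFD and 277, 313 and 269 CPM in Allantoin-H (log2 fold change -0.02, SE 0.22, adjusted p = 0.966). Both overlapped between the groups. Sult1a1 has 61 exon bases in common with Sgf29 on the opposite strand.

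Sult1d1 did separate the groups, at 309, 287 and 284 CPM in HFD and 186, 244 and 236 CPM in Allantoin-H, but did not pass the test (log2 fold change -0.40, SE 0.17, adjusted p = 0.110).

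Sult1b1, which sulfates thyroid hormones and phenols, rose. It was at 19.9, 35.2 and 41.55 CPM in HFD and 61.9, 49.2 and 59.5 CPM in Allantoin-H, with no overlap (log2 fold change 0.82, SE 0.26, adjusted p = 0.0480). The call did not hold without HFD replicate 1 or 2, or without any 1 of the Allantoin-H libraries (adjusted p of up to 0.141). Sult5a1 fell. It was at 28.4, 29.0 and 30.2 CPM in HFD and 7.84, 18.4 and 5.60 CPM in Allantoin-H, with replicate 5 between the rest (log2 fold change -1.45, SE 0.38, adjusted p = 0.0250). This call was lost without HFD replicate 1, without Allantoin-H replicate 4 or 6 and with scaling by library size only (adjusted p of up to 0.0969).

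Sult2a7 was at 1.09, 1.88 and 1.59 CPM in HFD and 3.37, 2.60 and 4.32 CPM in Allantoin-H and narrowly missed the threshold (log2 fold change 1.16, SE 0.39, adjusted p = 0.0572). Sult1e1, the estrogen sulfotransferase, was at 1.75, 2.17 and 0.502 CPM against 4.11, 3.55 and 1.01 CPM and overlapped (adjusted p = 0.289), and Sult1c2 overlapped as well (log2 fold change 0.23, adjusted p = 0.684). Of the 13 SULT genes that were not tested, 7 were at 0 in every library and 5 at 3 counts or fewer. A count of 0 allows up to 3 counts in a library, or 0.177 to 0.328 CPM. Sult3a1, which is female-predominant in mouse liver, had 9 counts in Allantoin-H replicate 6 and 1 in all other libraries together. The sum of all SULT genes was 1853 ± 241 CPM in HFD and 1970 ± 150.2 CPM in Allantoin-H (SD, n = 3), a ratio of 1.06.

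**Figure D3:**
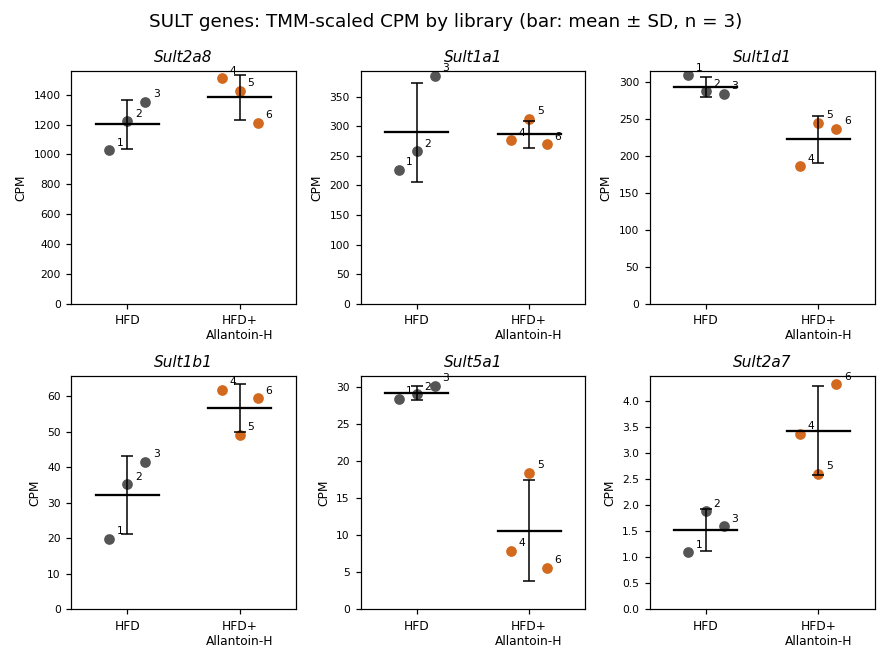
CPM (y axis) of 6 SULT genes in each library, labelled by replicate, with the mean and SD of the 3 libraries of each group (bars). Sult1b1 is higher in every Allantoin-H library and Sult5a1 lower, whereas Sult2a8 and Sult1a1 overlap between the groups.

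The GST genes moved in both directions. Gsta3, an alpha-class enzyme known in mice for detoxifying aflatoxin epoxide, rose, and all 3 pi-class genes fell. Gsta3 was at 330.5, 585 and 502 CPM in HFD and 1137, 1158 and 1399.8 CPM in Allantoin-H. The lowest Allantoin-H library was above the highest HFD library, and the log2 fold change was 1.38 (SE 0.23, adjusted p = 0.00545). Of the summed GST level per kilobase, Gsta3 made up 2.74% in HFD and 9.47% in Allantoin-H. The 250 bases before its RefSeq start are shown with the NRF2 core TGACNNNGC in capitals.
Gsta3, chr1:21240335-21240584 (GRCm38.p6, plus strand): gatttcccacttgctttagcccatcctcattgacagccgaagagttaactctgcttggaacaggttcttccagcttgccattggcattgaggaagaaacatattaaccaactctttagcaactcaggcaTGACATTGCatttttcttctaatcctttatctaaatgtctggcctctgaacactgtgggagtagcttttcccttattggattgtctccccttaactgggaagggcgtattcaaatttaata
TGACNNNGC was present in 10.2% of all promoters. It was also found before Gstm5, Gstm7 and Mgst1, which were not called and had log2 fold changes of -0.59, 0.36 and -0.45.

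Gstp1, the main pi-class enzyme of male mouse liver, was at 971, 1553 and 650.1 CPM in HFD and 356, 356 and 201 CPM in Allantoin-H. The groups did not overlap, and the level was 3.48-fold lower (log2 fold change -1.80, SE 0.34, adjusted p = 0.00843). Its share of the GST level per kilobase was 17.2% in HFD and 6.57% in Allantoin-H. Gstp2 had 48, 19 and 89 counts in HFD and 4, 3 and 4 in Allantoin-H (5.24, 1.88 and 7.44 CPM against 0.293, 0.177 and 0.270 CPM). Its log2 fold change of -4.26 (SE 0.62, adjusted p = 0.00396) rests on counts close to the floor of 3.

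Gstp1 (chr19:4035407-4037985) and Gstp2 (chr19:4040285-4046023) differ in 12 of 633 coding bases, which is 98.1% identity, so that their reads may not be separable. The first 60 coding bases hold 6 of the differences, printed in capitals.
Gstp1: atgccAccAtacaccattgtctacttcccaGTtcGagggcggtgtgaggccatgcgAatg
Gstp2: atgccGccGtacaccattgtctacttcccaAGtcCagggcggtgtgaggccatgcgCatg
With the 3 Gstp genes summed into 1 feature, the log2 fold change was -1.78 (SE 0.33, adjusted p = 0.00785), and the summed level was 1080.1 ± 456 CPM in HFD and 313 ± 87.2 CPM in Allantoin-H (SD, n = 3). Gstp1 and Gstp2 were called under every alternative that tested them, but Gstp2 was not tested where at least 10 counts in every library were required. Gstp3, which has no near-identical copy, was at 19.98, 16.9 and 14.5 CPM in HFD and 9.24, 5.86 and 11.4 CPM in Allantoin-H (log2 fold change -0.95, SE 0.27, adjusted p = 0.0318). That call did not hold in 6 of 15 alternatives, including those that left out HFD replicate 1 or 2 or Allantoin-H replicate 4 or 5, with adjusted p of up to 0.279.

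Gstt3, a theta-class gene, was at 11.1, 26.5 and 25.7 CPM in HFD and 38.3, 37.9 and 52.5 CPM in Allantoin-H, without overlap (log2 fold change 1.02, SE 0.31, adjusted p = 0.0417). It shares 524 exon bases with Gm20441. Leaving out any 1 of the Allantoin-H libraries ended the call, with adjusted p of up to 0.140.

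Mgst1, the membrane-bound enzyme of the endoplasmic reticulum and outer mitochondrial membrane, was the most abundant conjugation gene per kilobase, at 2166 CPM per kilobase in HFD and 1583 in Allantoin-H. It was at 4663, 4258 and 4159.5 CPM in HFD and 2776, 2574 and 4208.5 CPM in Allantoin-H. Replicates 4 and 5 were below all HFD libraries but replicate 6 was not, and the difference did not pass the test (log2 fold change -0.45, SE 0.23, adjusted p = 0.178). Gstm1, the most abundant mu-class gene, was at 751, 533 and 548 CPM in HFD and 409.8, 506 and 846 CPM in Allantoin-H (log2 fold change -0.06, SE 0.28, adjusted p = 0.905).

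Allantoin-H replicate 6 stood above the other libraries in several GST genes. It was the highest of the 6 libraries in 9 of 21 tested GST genes, 8 of 15 UGT genes and 2 of 8 SULT genes. The same was not counted over all genes, so it is not shown to be particular to these families. Summed hepatocyte markers were also highest in replicate 6, at 99001 CPM against 70677 to 88746 CPM elsewhere. In 4 GST genes replicate 6 was more than 1.5 times any other library. Gstm3 was at 23.2 CPM there, against 3.71 to 6.02 CPM elsewhere, and Gsta1 at 11.4 CPM against 0.198 to 3.68 CPM. Gstm2 was at 62.8 CPM against 28.5 to 38.9 CPM, and Mgst3 at 19.98 CPM against 8.34 to 13.1 CPM. None of these 4 was called in the edgeR test, although Gstm3 and Gsta1 were called higher without the low-count filter. Cyp3a11, a PXR target, was at 1502 CPM in replicate 6, at 642 and 561 CPM in replicates 4 and 5 and at 303, 468 and 882 CPM in HFD, so that the groups overlapped, and it was not called (adjusted p = 0.280). Gsta1 shares near-identical stretches with Gsta2 and with Gm3776 and Gm10639, of up to 874 bases at 99.54% identity.

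Other GST genes showed smaller differences. Gstm4 was at 18.8, 25.7 and 28.6 CPM in HFD and 40.5, 29.9 and 40.4 CPM in Allantoin-H and missed the threshold (log2 fold change 0.60, SE 0.21, adjusted p = 0.0645). It was called higher in 5 of 15 alternatives, which were DESeq2, library size only, no low-count filter, the length and GC trend removed and HFD replicate 3 left out. Gstt1 was at 367, 381 and 425 CPM against 301, 281 and 319 CPM, without overlap and not called (log2 fold change -0.38, SE 0.15, adjusted p = 0.102). The remaining tested genes, Gsta2, Gsta4, Gstk1, Gstm5, Gstm6, Gstm7, Gsto1 and Gstt2, were not called, with log2 fold changes from -0.59 to 0.36. Gsto2, Gstt4 and Mgst2 were not tested, with at most 1, 3 and 10 counts in a library. The summed CPM of the 24 GST genes was 7467 ± 552 in HFD and 6195 ± 1269 in Allantoin-H (SD, n = 3), a ratio of 0.830. Per kilobase, Mgst1 made up 54.6% of the summed GST level in HFD and 52.9% in Allantoin-H.

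**Figure D4:**
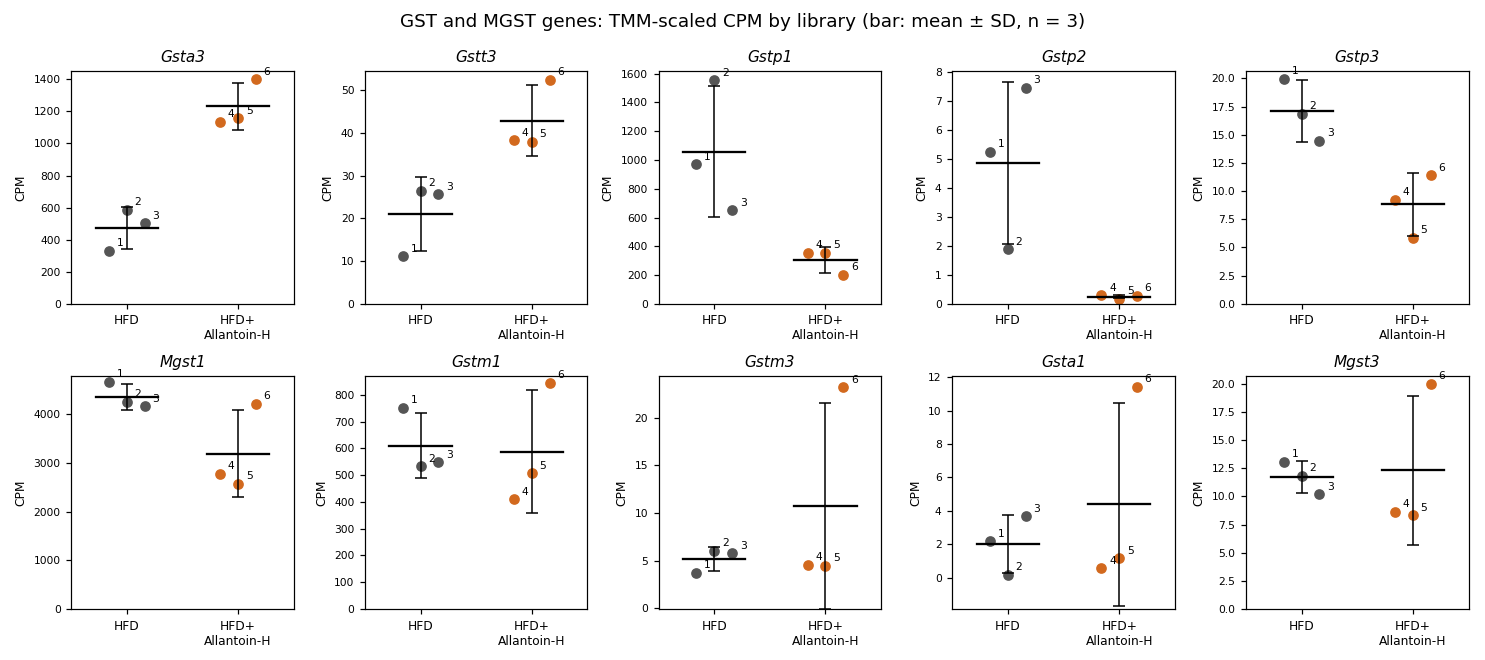
CPM (y axis) of 10 GST and Mgst genes in each library, labelled by replicate, with the mean and SD of the 3 libraries of each group (bars). Gsta3 and Gstt3 are higher and Gstp1, Gstp2 and Gstp3 lower in every Allantoin-H library, while Gstm3, Gsta1 and Mgst3 are high in replicate 6 only.

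The genes that supply, undo or export conjugates were listed by role. For comparison with the counts of these lists, 11.3% of all genes tested were called higher and 13% lower. Of 5 genes for UDP-glucuronic acid supply, none was called higher and 1 lower. Slc35d1, the transporter of UDP-glucuronic acid into the endoplasmic reticulum, was at 189, 121 and 206 CPM in HFD and 78.6, 91.2 and 119 CPM in Allantoin-H (log2 fold change -0.84, SE 0.24, adjusted p = 0.0352). Ugdh, which makes UDP-glucuronic acid, showed a log2 change of -0.17 (adjusted p = 0.675). None of the 5 was higher at an unadjusted p under 0.05 in edgeR, nor called higher by DESeq2 or limma-voom.

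Of 8 genes for PAPS supply and turnover, 3 were higher and 1 lower. Slc26a1, which carries sulfate, was at 62.2, 62.5 and 54.0 CPM in HFD and 101, 123.5 and 116 CPM in Allantoin-H (log2 fold change 0.93, adjusted p = 0.00586). Impad1 and Bpnt1, phosphatases that remove the PAP left after sulfation, each rose by 0.93 on the log2 scale (adjusted p = 0.00829 and 0.0184). Slc35b3, a PAPS transporter of the Golgi, fell by 0.98 on the log2 scale (adjusted p = 0.0249). Papss2, a PAPS synthase, did not pass the test (log2 fold change 0.76, adjusted p = 0.0754). DESeq2 called 5 genes of this list higher and 1 lower, limma-voom 3 and 1, and edgeR with library size only 6 and 0, so that the lower call of Slc35b3 was lost there.

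Of 11 tested genes of glutathione synthesis and turnover, none was higher and 2 were lower in edgeR. At an unadjusted p under 0.05, 1 was higher and 3 lower, and DESeq2 called 0 higher and 3 lower and limma-voom 0 and 2. Gss, glutathione synthetase, was at 88.0, 77.6 and 111 CPM in HFD and 46.9, 45.4 and 56.1 CPM in Allantoin-H (log2 fold change -0.90, adjusted p = 0.0107). Ggct, a gamma-glutamylcyclotransferase, fell by 0.74 on the log2 scale (adjusted p = 0.0384). Among 13 tested genes of other conjugation reactions, Tpmt, thiopurine methyltransferase, was the one called by edgeR, with a log2 fold change of -0.55 (adjusted p = 0.0318). At an unadjusted p under 0.05, 2 of these 13 were higher, and DESeq2 and limma-voom each called 2 higher. The lower calls of these lists depended on the scaling, as did those of all genes. Library size only called 3162 of 12795 genes higher (24.7%) and 674 lower, against 1446 and 1666 in the main fit. Without HFD replicate 3, 1773 of 13226 genes were higher and 2008 lower. With library size only, a setting counted over the lists after the data were seen, 0 genes of the UDP-glucuronic acid, glutathione and other conjugation lists were lower and 1, 3 and 3 were higher. Without HFD replicate 3, also counted after the data were seen, these 3 lists had 0, 1 and 2 lower and 0, 0 and 1 higher calls, and the sensors and partner factors had 4 higher and 1 lower.

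Of 5 genes listed under deconjugation, 4 were tested and 3 of these rose. The other, Sts (steroid sulfatase), was not found by symbol among the genes of the count table. The list takes in sulfatases and their activator whatever their substrate. These calls therefore do not show that drug or hormone conjugates were cleaved more. Gusb, beta-glucuronidase, was at 7.31, 10.9 and 10.95 CPM in HFD and 17.5, 18.9 and 24.2 CPM in Allantoin-H (log2 fold change 1.05, adjusted p = 0.0120). Arsb, arylsulfatase B, rose by 1.62 on the log2 scale (adjusted p = 0.00600), and Sumf1, which activates sulfatases, by 0.86 (adjusted p = 0.0362). Gusb and Arsb are lysosomal enzymes found in many cell types, and 3 of 8 macrophage and 5 of 8 stellate cell markers were called higher, as given above. The part of these cells in the rise of Gusb and Arsb was not tested. Of 5 conjugate exporters, edgeR called 1 higher and 0 lower. Abcc3, which exports glucuronides across the sinusoidal membrane, was at 99.2, 92.6 and 108 CPM in HFD and 236.5, 316 and 288 CPM in Allantoin-H (log2 fold change 1.49, SE 0.17, adjusted p = 0.00248). Abcc6 was lower without overlap but was not called (log2 fold change -0.67, SE 0.24, adjusted p = 0.0752). DESeq2 called 1 exporter higher and 1 lower, limma-voom 1 and 0, and edgeR with library size only 2 and 0.

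Of 13 sensors and partner factors, 3 rose and none fell in edgeR, in DESeq2 and in limma-voom, and 0 were lower at an unadjusted p under 0.05 in edgeR. Ppara, the receptor for fatty acids, was at 39.1, 27.4 and 18.9 CPM in HFD and 109, 145.5 and 91.4 CPM in Allantoin-H (log2 fold change 2.02, SE 0.29, adjusted p = 0.00389). Rxra, its dimer partner, rose by 0.92 on the log2 scale (adjusted p = 0.00787). Arnt, the partner of AhR, rose by 0.68 on the log2 scale (adjusted p = 0.0389). Ahr, Nr1i2 (PXR) and Nr1i3 (CAR) had log2 fold changes of 0.02, -0.0046 and -0.08 and were not called. None of the 8 tested NRF2 target genes outside the UGT, SULT and GST families was called in either direction by edgeR. At an unadjusted p under 0.05, 0 were higher and 1 lower, DESeq2 called 1 lower of the 7 it tested, and limma-voom called none. With library size only, 1 was called higher. HFD replicate 3 stood apart on this list, whose summed level was 1642 CPM there and 815 to 1017 CPM in the other 5 libraries. Srxn1, sulfiredoxin, was at 371 CPM in that library and at 30.4 to 56.0 CPM elsewhere, and Gclc, which makes the glutathione precursor, at 624 CPM against 212 to 380.4 CPM. Nfe2l2, the gene of NRF2, was at 152 CPM against 38.2 to 62.0 CPM, and its partner Mafk at 54.0 CPM against 10.5 to 17.1 CPM. Without HFD replicate 3 edgeR called none of the list in either direction (1 was higher at an unadjusted p under 0.05). Of 8 tested targets of CAR, PXR and AhR outside these families, Por, the electron donor of cytochrome P450 enzymes, rose by 1.29 (adjusted p = 0.00803) and Aldh1a1, an aldehyde dehydrogenase, by 0.75 on the log2 scale (adjusted p = 0.0485). Cyp1a2, an AhR target, was lower, with a log2 fold change of -0.86 (adjusted p = 0.0274), a call that was lost with library size only.

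**Figure D5:**
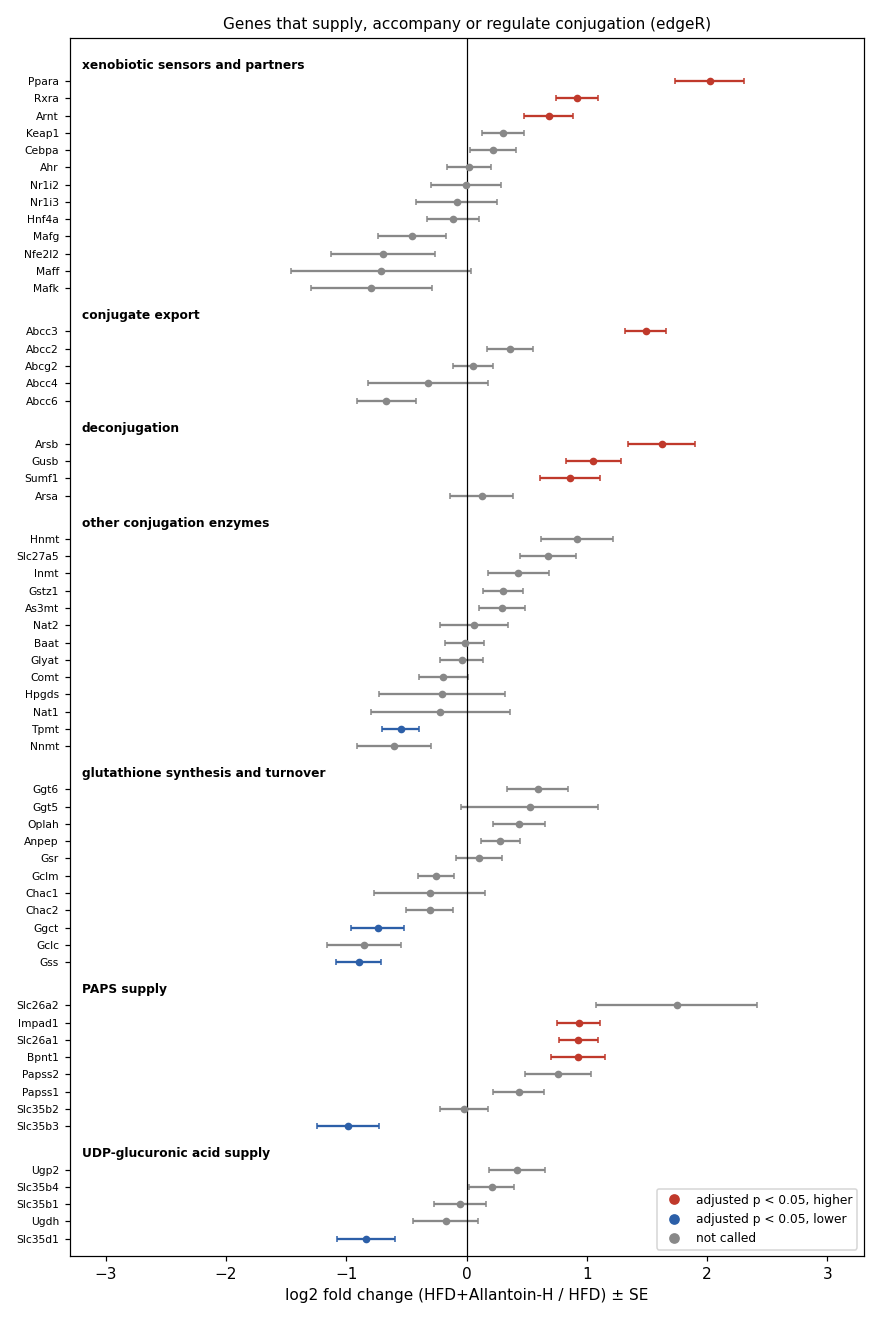
Log2 fold change (HFD + Allantoin-H over HFD, x axis) with its standard error for the tested genes of 7 lists that supply, accompany, undo or regulate conjugation, coloured by call. Abcc3, Ppara and Arsb lie farthest to the right among the called genes, and the lower calls are Slc35d1, Slc35b3, Gss, Ggct and Tpmt.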

How the data were processed

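Liver RNA of 6 libraries (3 HFD, 3 HFD + Allantoin-H) was sequenced from SMARTER mRNA libraries on an Illumina HiSeq and the reads were filtered. The authors deposited raw counts per gene. The submitters' processing notes name GRCm38 and mm10, and the aligner, counter, annotation and strand setting are not given in the sources used here. Of 54961 rows, 429 without an Ensembl identifier (0.197 to 0.306% of counts per library) were left out. Symbols, exons and lengths came from GENCODE M21, which held 54495 identifiers, and promoters from RefSeq (GRCm38.p6).

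Counts were tested with edgeR 4.0.16 in R 4.3.3 (TMM, filterByExpr, quasi-likelihood F test, Benjamini-Hochberg over 12795 genes), with group as the only term. Limma 3.58.1 (voom) and DESeq2 1.42.0 were alternatives, and the scripts were tested on simulated counts. CPM values use TMM-scaled library sizes, and lengths are exon bases. Totals were 11326372 to 14601457 counts, and 3 counts were the floor. The standard error was derived from the F statistic. With 3 against 3 libraries an exact permutation test cannot go below p = 0.1, so none was used.

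The genes and lists were chosen with earlier results of these data known. Named genes were, per family, up to 5 called higher and 5 lower by smallest p with a mean of at least 1 CPM, the 2 most abundant per kilobase, and up to 3 called genes per pathway list. Ugt3a2, Ugt2b34, Slc35b3 and the genes not called, other than Ugt2b5, Ugt2b36, Sult2a8, Sult1a1 and Mgst1, were named after their values were seen. An item of the sensor list is not reported here.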

Additional observations from a re-analysis of the deposited data

How the results depend on the processing

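No paired analysis was possible because the HFD libraries are numbered 1 to 3 and the Allantoin-H libraries 4 to 6, with no number in common. The 7 UGT genes higher stayed at 6 or 7 when any library was left out, and the 3 GST genes lower at 2 to 4. Leaving out a library gave 0 to 2 UGT genes lower (2 with all libraries), 0 to 1 SULT genes higher (1), 0 to 1 SULT genes lower (1) and 1 to 3 GST genes higher (2). UGT genes lower numbered 1 with library size only, 0 in limma-voom, 1 with the length and GC trend removed and 0 at adjusted p under 0.01. SULT genes higher numbered 2 with library size only, 2 in DESeq2, 2 with at least 10 counts in every library, 2 with the trend removed, 0 at adjusted p under 0.01 and 0 with a log2 fold change above 1. SULT genes lower numbered 0 with library size only and 0 at adjusted p under 0.01. GST genes higher numbered 4 with library size only, 5 without the low-count filter, 4 with the trend removed and 1 at adjusted p under 0.01. Scaling by library size only moved the median log2 fold change of all genes from -0.03 to 0.38. The share called higher went from 11.3% to 24.7%, and the number called lower from 1666 to 674. Of the conjugation genes, 13 were then higher and 3 lower. Leaving out an Allantoin-H library reduced the share of all genes called higher to 3.48 to 5.31% and left 7 conjugation genes higher. The number of all genes called lower was then 564 to 832, and 1339 to 2008 when an HFD library was left out. Sult1a1, at -0.02 and not called, became 0.37 with library size only, 0.018 in limma-voom, 0.020 without the low-count filter, 0.12 with the trend removed, and lay between -0.17 and 0.24 when a library was left out. Ugt1a6a itself stayed between -2.25 and -1.23 wherever it was fitted alone, and the sum of all Ugt1a counts, a feature that by construction includes the other genes, had 2.0, the opposite sign. The cause of the other changes was not tested. Depth limits the genes at a few counts, such as Gstp2, Ugt1a9 and the untested genes.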
